A study of Mus musculus with 6 samples.

Results

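The islet peptide hormones were followed as 10 genes: Gcg (glucagon), Sst (somatostatin), Ppy (pancreatic polypeptide), Pyy (peptide YY), Iapp (islet amyloid polypeptide, or amylin), Ucn3 (urocortin 3), Ins1 and Ins2 (insulin), Ghrl (ghrelin) and Npy (neuropeptide Y). They were chosen by gene symbol, and each had 1 of the 23179 gene rows. The libraries were made from total RNA of pancreatic islets of male mice of strain C57BL/6J aged 10 to 14 weeks. The 3 knockout (KO) libraries came from mice of genotype Ffar3-/-, which lack a receptor of short-chain fatty acids, and the 3 wild-type (WT) libraries came from wildtype mice. Each library held islets picked from the pooled isolations of 2 pancreata, and the replicates are described as biological. The labels give no cell type or promoter for the knockout and no littermate or isolation date. Such bulk libraries cannot tell fewer cells of a type apart from less RNA per cell.

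Each islet hormone is made mainly by 1 endocrine cell type as a longer precursor, which convertases and carboxypeptidases cut inside secretory granules. Beta cells make insulin and co-secrete amylin, and in the mouse mature beta cells also release urocortin 3, which acts on neighbouring delta cells. Alpha cells make glucagon, which raises blood glucose, and delta cells make somatostatin, which restrains both insulin and glucagon release. Pancreatic polypeptide, peptide YY and neuropeptide Y form a family of related peptides, and ghrelin is the hormone of a rare islet cell type and of the stomach.

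The insulin rows could not be read as levels. Ins1 was listed at 0, 43721 and 48334 FPKM in KO replicates 1, 2 and 3, and at 0 in each WT library. FPKM counts fragments per kilobase of transcript, scaled per library in a way that the sources used here do not give. Ins2 was listed at 0 in all 6 libraries. Because beta cell genes such as Iapp were high in every library, zeros in both insulin genes were treated as failed estimates. No fold change or test of them is reported. In KO replicates 2 and 3 the listed Ins1 value was 1.59 and 1.56 times that of Iapp. The first 180 coding bases of both genes are shown because fragments from near-identical stretches are hard to assign to 1 gene. Capitals mark the 15 bases that differ. The sequences are those of the GENCODE M21 transcripts on GRCm38 (mm10), spliced, with Ins1 on chromosome 19 (plus strand, 52264297 to 52265476) and the Ins2 transcript on chromosome 7 (minus strand, 142678659 to 142679726).
Ins1: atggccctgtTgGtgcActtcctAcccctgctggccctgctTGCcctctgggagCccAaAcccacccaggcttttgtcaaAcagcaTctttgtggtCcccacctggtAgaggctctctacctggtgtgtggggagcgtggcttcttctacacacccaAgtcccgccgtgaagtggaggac
Ins2: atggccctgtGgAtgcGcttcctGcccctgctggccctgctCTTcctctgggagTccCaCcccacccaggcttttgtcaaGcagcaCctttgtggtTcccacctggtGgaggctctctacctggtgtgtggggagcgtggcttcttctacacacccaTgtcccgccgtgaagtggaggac
Over all 330 aligned coding positions, without the stop codon, there were 24 mismatches and 6 gap positions, so 92.6% of the paired bases were identical. The longest identical stretch was 54 bases. Whether this likeness led to the zeros was not tested.

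The upstream sequences of Gcg, Sst and Iapp are shown because these are the abundant hormones of alpha, delta and beta cells, whose ratios are followed here. Each is the 250 bases before the annotated start in RefSeq (GRCm38.p6), printed 5′ to 3′ on the gene's own strand. Capitals mark TATAAA, the core of a TATA box, and TGACGTCA, the cAMP response element, searched on both strands.
Gcg, chr2:62483654-62483903, minus strand: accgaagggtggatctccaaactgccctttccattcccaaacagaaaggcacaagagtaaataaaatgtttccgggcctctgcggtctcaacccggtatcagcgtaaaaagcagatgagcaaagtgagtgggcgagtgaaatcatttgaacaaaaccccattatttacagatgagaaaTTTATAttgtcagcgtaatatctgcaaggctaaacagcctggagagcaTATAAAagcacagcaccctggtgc
Sst, chr16:23890845-23891094, minus strand: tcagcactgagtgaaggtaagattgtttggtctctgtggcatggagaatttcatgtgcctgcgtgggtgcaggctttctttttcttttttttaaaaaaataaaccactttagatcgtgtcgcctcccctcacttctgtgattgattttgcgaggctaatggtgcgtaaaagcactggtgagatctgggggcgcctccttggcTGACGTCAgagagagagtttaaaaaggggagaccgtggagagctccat
Iapp, chr6:142298175-142298424, plus strand: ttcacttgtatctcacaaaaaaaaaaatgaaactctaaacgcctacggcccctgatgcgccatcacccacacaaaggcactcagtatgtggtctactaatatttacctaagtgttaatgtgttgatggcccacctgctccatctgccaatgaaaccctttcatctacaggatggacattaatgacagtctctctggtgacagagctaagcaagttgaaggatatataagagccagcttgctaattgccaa
The Sst window held TGACGTCA beginning 48 bases before the start, and 1.55% of the 32851 RefSeq windows of this length held that motif. In Gcg, TATAAA began 24 bases before the start, with another match on the opposite strand beginning 72 bases before it, and 12.4% of windows held the motif. Neither motif was in the Iapp window, and TAATTA, a core motif of homeodomain factors held by 4.84% of windows, was in none of the 3. Of the 10 hormones, 9 had such a window. Ppy held 1 TATAAA, beginning 31 bases before its start. These matches describe letters and carry no measurement of binding.

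Ffar3 itself was listed at 0 or 0.105 FPKM in the KO libraries and at 4.69 to 6.68 FPKM in the WT libraries, so the 6 labels matched the targeted gene. Transcripts of acinar cells, the enzyme-secreting cells around the islets, differed widely: the 33 listed acinar genes summed to 27163, 272452 and 579058 FPKM in KO replicates 1, 2 and 3 and to 29064 to 45540 FPKM in the WT libraries. None of them was at 0 throughout, and of 31 tested 1 was called higher in KO and 0 lower, beside 39.9% of all tested rows called in either direction. Without KO replicate 1 the count was 30 higher, with array weights 28, and without any other single library 0. Calls over all rows were then 5727, 5468 and 2481 to 4120, against 4657. Outside the acinar and insulin rows the values summed to 382107 to 428952 FPKM in KO and 400084 to 406359 FPKM in WT, and the median log2 difference over all tested rows was -0.01. Markers of immune cells summed to 62.7, 152 and 24.4 FPKM in KO replicates 1, 2 and 3 and to 23.9 to 25.6 FPKM in WT. Duct markers summed to 203 to 255 FPKM in KO and 192 to 200 FPKM in WT, endothelial markers to 163 to 183 FPKM in KO and 178 to 219 FPKM in WT, and stellate markers to 28 to 37.8 FPKM in KO and 34.1 to 37.3 FPKM in WT. The part of these other cells in the hormone values was not tested.

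The order of the hormone levels was nearly the same in every library. FPKM is scaled by transcript length, so genes can be set side by side within a library. Iapp was highest, followed by Gcg, Ppy, Sst, Pyy and Ucn3, in all 3 KO and all 3 WT libraries. Npy and Ghrl were lowest and changed places, with Npy above Ghrl in KO replicates 1 and 2 and WT replicate 1 only, so their levels did not differ beyond the spread. Iapp ranked 1, 4 and 8 among all rows in KO replicates 1, 2 and 3 and 1 in each WT library. Gcg ranked 2, 14 and 22 in the KO libraries and 2 in each WT library. The lower ranks in KO replicates 2 and 3 stand beside the high acinar sums there.

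**Figure D1:**
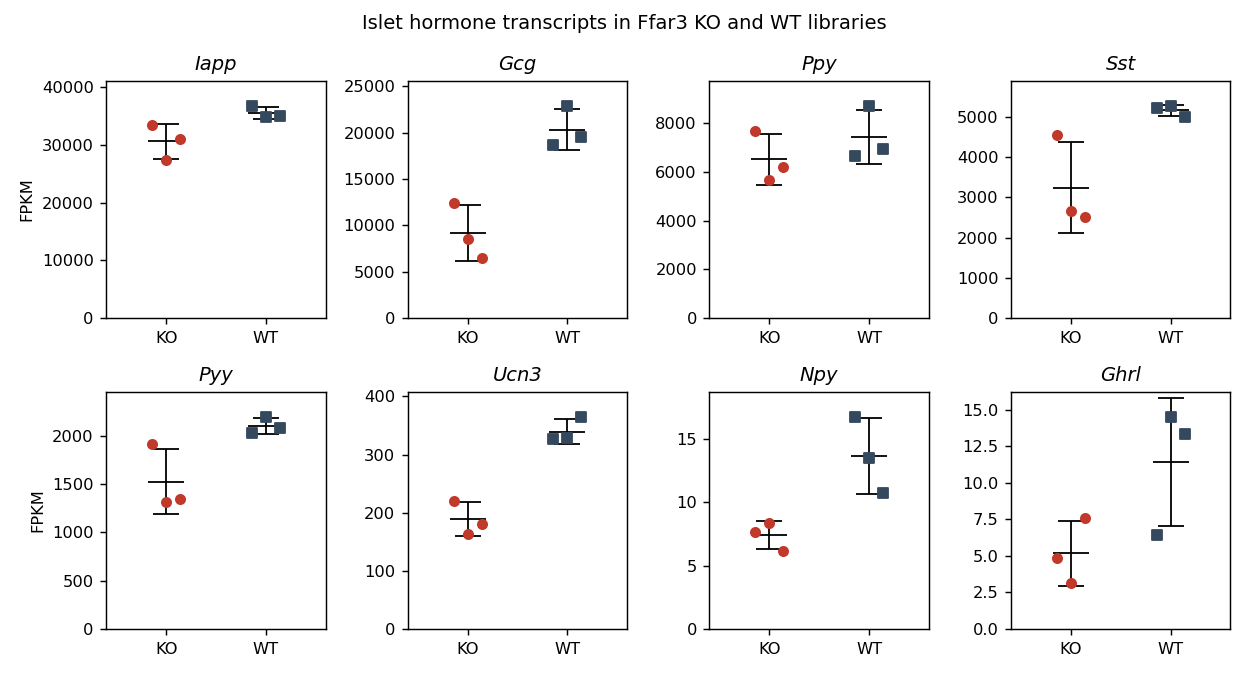
FPKM of the 8 hormones with a value above 0 in every library, in the 3 KO (circles) and 3 WT (squares) libraries, with mean and SD as bars; each panel has its own axis from 0. Gcg, Sst, Pyy, Iapp, Ucn3 and Npy show no overlap between KO and WT, while Ppy and Ghrl overlap.

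Glucagon had the largest absolute gap among the hormones with a full set of values. Gcg (chromosome 2, 62474530 to 62483650, minus strand) measured 12436, 8534 and 6474 FPKM in the KO libraries and 18617, 22807 and 19486 FPKM in the WT libraries. Every KO library lay below every WT library, and the KO mean was 45.1% of the WT mean. The log2 difference was -1.20 (SE 0.45, 95% interval -2.26 to -0.14, limma adjusted p = 0.07), which did not pass the threshold of 0.05. It passed with a variance prior that does not follow the level (adjusted p = 0.0095) and in a fit with the mean log2 acinar signal as a second term (-0.76, adjusted p = 0.011). That fit leans on KO replicate 1, the KO library with an acinar sum near WT. Of the 21 alternative fits Gcg passed in 6. It did not pass without KO replicate 2 or 3 (limma adjusted p of 0.17 and 0.092) or without any 1 of the WT libraries (0.19 to 0.23). In KO replicate 1 set alone against WT, which assumes that a lone library varies like the WT ones, the log2 difference was -0.70 (adjusted p = 0.051), and without that library it was -1.44 (adjusted p = 0.0045).

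Somatostatin (Sst, chromosome 16, 23889573 to 23890958, minus strand) had 4539, 2668 and 2522 FPKM in the KO libraries and 5219, 5254 and 4993 FPKM in the WT libraries. The groups did not overlap, but KO replicate 1 lay much closer to the WT values than to the other KO values. Its log2 difference was -0.72 (SE 0.29, 95% interval -1.40 to -0.04, adjusted p = 0.084) and did not pass. Without KO replicate 1 it was -0.99 (adjusted p = 0.002), and in KO replicate 1 alone -0.18 (adjusted p = 0.28). Acinar sums were 27163, 272452 and 579058 FPKM in KO replicates 1, 2 and 3. In the fit with the mean log2 acinar signal as a second term the log2 difference of Sst was -0.30 (limma adjusted p = 0.071). That fit leans on KO replicate 1, and the part of acinar cells in the Sst gap was not tested. Sst passed in 4 of the 21 alternative fits.

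Ppy and Pyy are neighbours on chromosome 11, both on the minus strand, with 5356 bases and no annotated gene between them. Ppy measured 7685, 5642 and 6195 FPKM in the KO libraries and 6631, 8672 and 6912 FPKM in the WT libraries, and the groups overlapped (log2 difference -0.19, 95% interval -0.90 to 0.53, adjusted p = 0.64). That interval holds differences of either sign. Pyy measured 1915, 1318 and 1342 FPKM in the KO libraries and 2027, 2193 and 2085 FPKM in the WT libraries. Its groups did not overlap, with KO replicate 1 again the nearest to WT. The log2 difference was -0.48 (SE 0.19, 95% interval -0.93 to -0.03, adjusted p = 0.081), and Pyy passed in 4 of the 21 alternative fits. With the acinar signal as a second term the log2 difference of Pyy was -0.21 (limma adjusted p = 0.14). Without KO replicate 1 Pyy was at -0.66 (adjusted p = 0.0033), and in that library alone at -0.13 (adjusted p = 0.34).

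Of the beta cell peptides, urocortin 3 fell and amylin did not pass the test. Ucn3 (chromosome 13, 3940688 to 3945349, minus strand) measured 220.6, 163.7 and 181.0 FPKM in the KO libraries and 326.4, 327.9 and 364.3 FPKM in the WT libraries. The highest KO value lay well below the lowest WT value, and the KO mean was 55.5% of the WT mean. The log2 difference was -0.86 (SE 0.12, 95% interval -1.14 to -0.57, adjusted p = 0.0028), and Ucn3 passed in each of the 21 alternative fits. In KO replicate 1 alone, where the acinar sum was not high, its log2 difference was -0.62 (adjusted p = 0.006). Iapp (chromosome 6, 142298423 to 142303961, plus strand) measured 33357, 27415 and 30945 FPKM in the KO libraries and 36606, 34745 and 34975 FPKM in the WT libraries. The groups were close but did not overlap, with the KO mean at 86.3% of the WT mean (log2 difference -0.22, 95% interval -1.78 to 1.34, adjusted p = 0.80). Iapp overlaps Slco1a5, which was at 0.377 to 0.605 FPKM over all libraries.

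Neuropeptide Y fell as well, at a far lower level. Npy (chromosome 6, 49822710 to 49829507, plus strand) measured 7.69, 8.40 and 6.18 FPKM in the KO libraries and 16.7, 13.5 and 10.8 FPKM in the WT libraries. All KO values lay below all WT values (log2 difference -0.79, SE 0.16, 95% interval -1.17 to -0.40, adjusted p = 0.01). Nerves also make neuropeptide Y, and the list of Schwann cell and nerve markers summed to less in KO, mostly through 1 gene. That gene, Th (tyrosine hydroxylase, which makes the precursor of dopamine and noradrenaline), averaged 17.7 ± 2.06 FPKM in KO and 26.8 ± 2.62 FPKM in WT (SD, n = 3 each; log2 difference -0.57, limma adjusted p = 0.0063). The 7 listed genes summed to 18.4 to 23.4 FPKM in KO and 30.8 to 35.3 FPKM in WT, and Dbh, which makes noradrenaline, was at no more than 0.0423 FPKM in any library. Their part in the Npy difference was not tested. Ghrl (chromosome 6, 113716119 to 113719880, minus strand) measured 4.83, 3.15 and 7.59 FPKM in the KO libraries and 6.41, 14.5 and 13.4 FPKM in the WT libraries. Here the groups overlapped, because WT replicate 1 lay below KO replicate 3 (log2 difference -1.0, SE 0.35, adjusted p = 0.056). Without WT replicate 1 the log2 difference was -1.33 and passed (adjusted p = 0.03), and without KO replicate 3 it was -1.27 (adjusted p = 0.03). Without any 1 of the other libraries it was -0.74 to -0.99 and did not pass (adjusted p of 0.086 to 0.17). Mboat4, the enzyme that acylates ghrelin, averaged 0.106 ± 0.0702 FPKM in KO and 0.0366 ± 0.0401 FPKM in WT (SD, n = 3 each) and was too low to be tested.

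In all, 8 of the 10 hormones were tested, all with values above 0 in every library, and 2 of them, Ucn3 and Npy, were lower in KO while 0 were higher. Over all tested rows 39.9% were called and 19.6% were called lower, so 2 of 8 lies near that background. The KO and WT values did not overlap for 6 of the 8, always with KO lower, against 28.5% of all tested rows with KO lower and 56.3% in either direction. The median log2 difference of the 8 was -0.75. Of all tested rows 10.4% were called lower with the acinar term, 10.9% in KO replicate 1 alone, 24.3% without KO replicate 1, 16.5% without KO replicate 3 and 9.43% without WT replicate 1. The exact two-sided permutation test of a single gene gave p = 0.1 for each of those 6, the smallest that 3 against 3 libraries allow, p = 0.2 for Ghrl and p = 0.4 for Ppy.

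**Figure D2:**
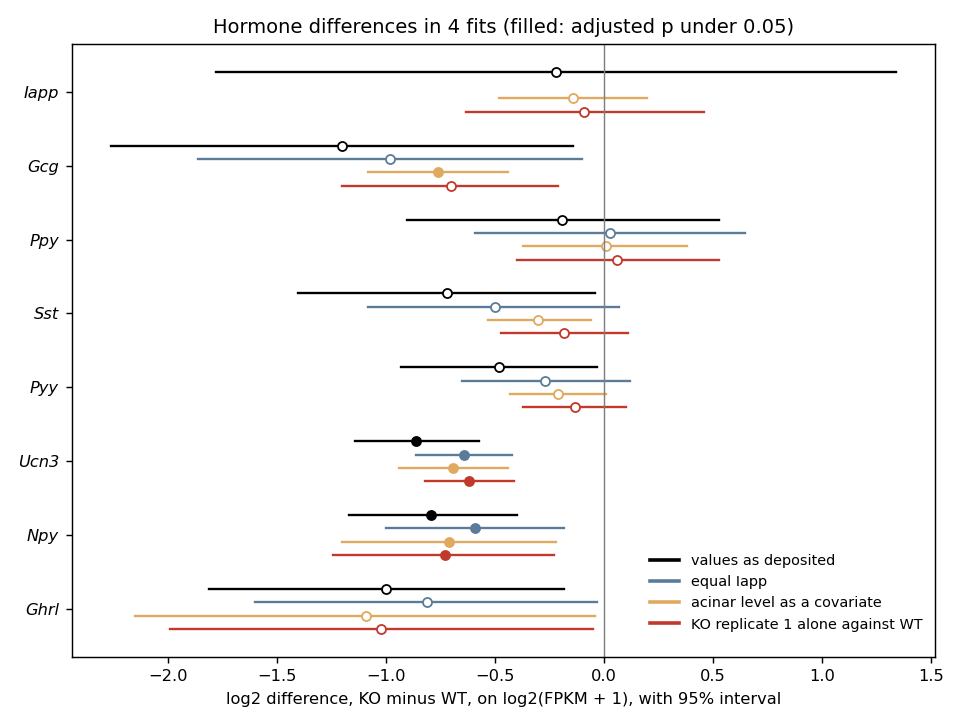
Log2 difference KO minus WT with its 95% interval for each hormone in 4 fits: values as deposited, values rescaled to equal Iapp (no point for Iapp itself), the acinar signal as a second term, and KO replicate 1 alone against WT; filled points passed an adjusted p of 0.05. Ucn3 and Npy passed in all 4 fits, Gcg with the acinar term only, and the others in none of them.

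The abundant hormones were tested against a wide spread. The fit combines each gene's own variance with the variance usual at its level, and among the 39 tested rows with a mean above 10 log2 units there were 17 acinar genes, each with a within-group SD above 1. Their median SD was 1.64 log2 units, against 0.161 for the other 22 rows, 5 of them hormones. For Iapp the SD between its own replicates was 0.105, while the SD taken as usual at its level was 1.225. For Gcg these values were 0.351 and 0.732, and for Ppy 0.219 and 0.506. Ucn3, at a lower level, had an own SD of 0.166 and a usual SD of 0.117. With a prior that ignores the level, chosen after the data were seen, Gcg, Sst and Pyy passed beside Ucn3 and Npy (adjusted p of 0.0095, 0.039 and 0.041), while 19.7% of all rows were called lower. A robust prior and array weights also passed these 5 hormones, with 20% and 22.7% of all rows called lower. In the fit without a trend Iapp was at -0.22 with a 95% interval of -0.42 to -0.02 (adjusted p = 0.081).

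**Figure D3:**
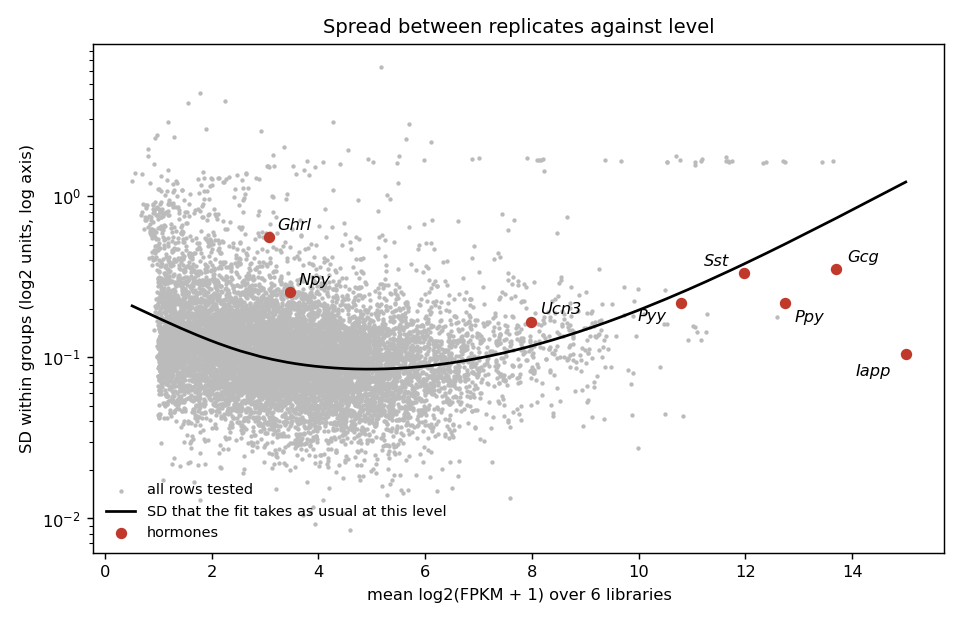
Within-group SD in log2 units (log axis) against mean log2(FPKM + 1) for all tested rows (grey), with the SD that the fit takes as usual at each level (line) and the 8 hormones (red). Iapp lies far below the line (0.105 against 1.225), Ucn3 and Sst lie near it, and Ghrl lies above it.

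Ratios within a library do not depend on how that library was scaled, and they set glucagon apart from amylin and pancreatic polypeptide. Per 1000 FPKM of Iapp, Gcg stood at 373, 311 and 209 FPKM in the KO libraries and at 509, 656 and 557 FPKM in the WT libraries. All 3 KO ratios lay below all 3 WT ratios, with a log2 difference of -0.98. The ratio of Gcg to Ppy was 1.62, 1.51 and 1.04 in the KO libraries and 2.81, 2.63 and 2.82 in the WT libraries, so in KO replicate 3 the levels of both were nearly equal. Gcg was also lower relative to Sst (ratio of 2.57 to 3.20 in KO and 3.57 to 4.34 in WT) and to Pyy (4.83 to 6.49 in KO and 9.19 to 10.4 in WT). Relative to Ucn3, Npy and Ghrl, the values of Gcg overlapped between the groups.

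Urocortin 3 was lower relative to amylin, the other beta cell peptide. It stood at 6.61, 5.97 and 5.85 FPKM per 1000 FPKM of Iapp in the KO libraries and at 8.92, 9.44 and 10.4 in the WT libraries (log2 difference -0.64). With all values rescaled to equal Iapp, Ucn3 passed the test across all rows (-0.64, SE 0.09, adjusted p = 0.0037), and so did Npy (-0.59, adjusted p = 0.037), while 5.77% of all tested rows were called lower. That rescaling moved the median of all rows to 0.18. Rescaled to equal summed hormones, which moved that median to 0.41, Ucn3 alone passed, Npy was at -0.36 (adjusted p = 0.13), Ppy and Iapp turned to 0.29 and 0.26, and 1.7% of rows were called lower. Ppy stood at 34.8, 34.5 and 34.2 times Ucn3 in the KO libraries and at 20.3, 26.4 and 19.0 times in the WT libraries, so the KO ratios were close together and all above WT.

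Somatostatin relative to Iapp was at 136, 97.3 and 81.5 per 1000 in the KO libraries and at 143, 151 and 143 in the WT libraries, without overlap but with KO replicate 1 close to WT. Ppy relative to Iapp overlapped, at 200 to 230 per 1000 in KO and 181 to 250 in WT. Pyy was lower relative to its neighbour Ppy, which stood at 4.01 to 4.62 times Pyy in KO and 3.27 to 3.95 times in WT. Among the 28 pairs of the 8 hormones, 13 had KO and WT ratios without overlap. These pairs share 8 genes and are not independent, and the share over pairs of other genes was not counted. Of single tested rows 56.3% had no overlap. Gcg was the lower partner in 4 of its 7 pairs, Ucn3 and Sst in 3, Npy in 2 and Pyy in 1, while Ppy was the higher partner in 5, Iapp in 4, Pyy in 3 and Sst in 1. For each of the 13 the exact two-sided permutation test gave p = 0.1, the smallest possible, and 0.215 after Benjamini-Hochberg adjustment over the 28 pairs.

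**Figure D4:**
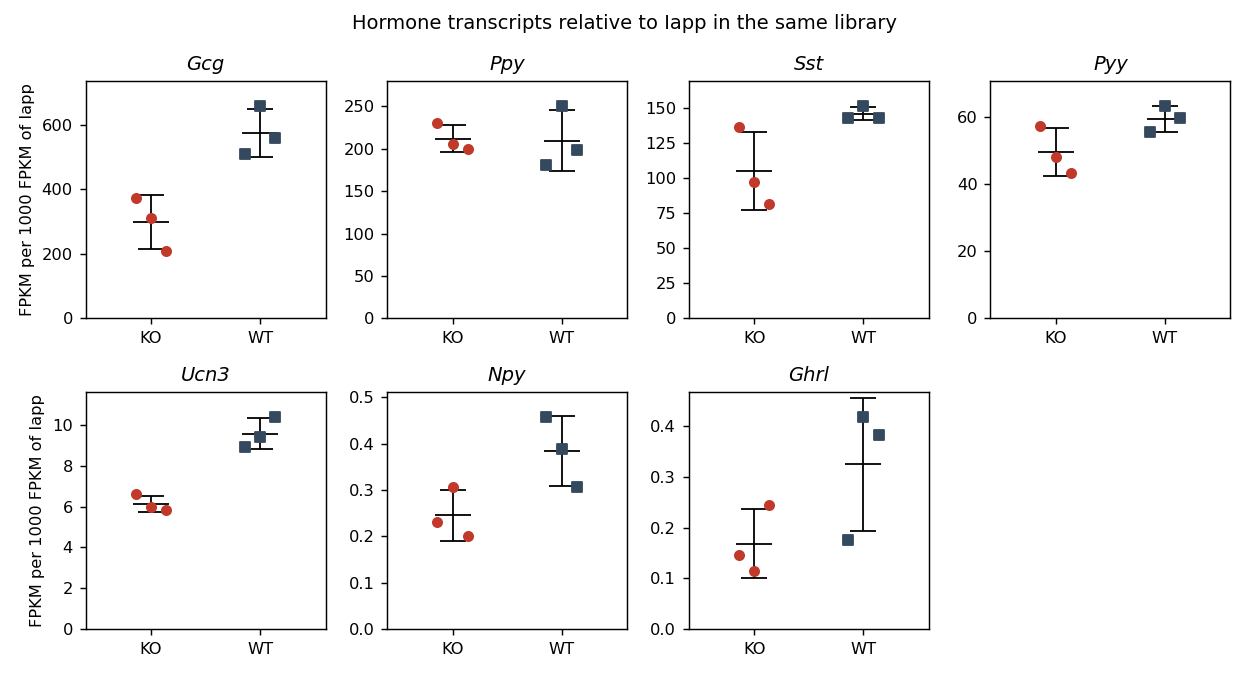
FPKM of each hormone per 1000 FPKM of Iapp in the same library, in the 3 KO (circles) and 3 WT (squares) libraries, with mean and SD as bars. Gcg, Sst, Ucn3 and Npy lie lower in KO without overlap, and Ppy, Pyy and Ghrl overlap.

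As shares of the summed FPKM of the 8 hormones, Gcg made up 20.7%, 18.7% and 13.6% in the KO libraries and 26.8%, 30.8% and 28.3% in the WT libraries. Iapp made up 55.4%, 59.9% and 64.9% in KO and 52.7%, 46.9% and 50.8% in WT, and Ppy 12.3% to 13% in KO and 9.55% to 11.7% in WT. None of these 3 shares overlapped between the groups, with Gcg lower and Iapp and Ppy higher in KO. Pyy held nearly the same share, at 2.96% ± 0.197 in KO and 2.97% ± 0.0555 in WT (SD, n = 3 each). The shares leave insulin out and sum to a whole, so a lower share of 1 hormone raises the others.

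**Figure D5:**
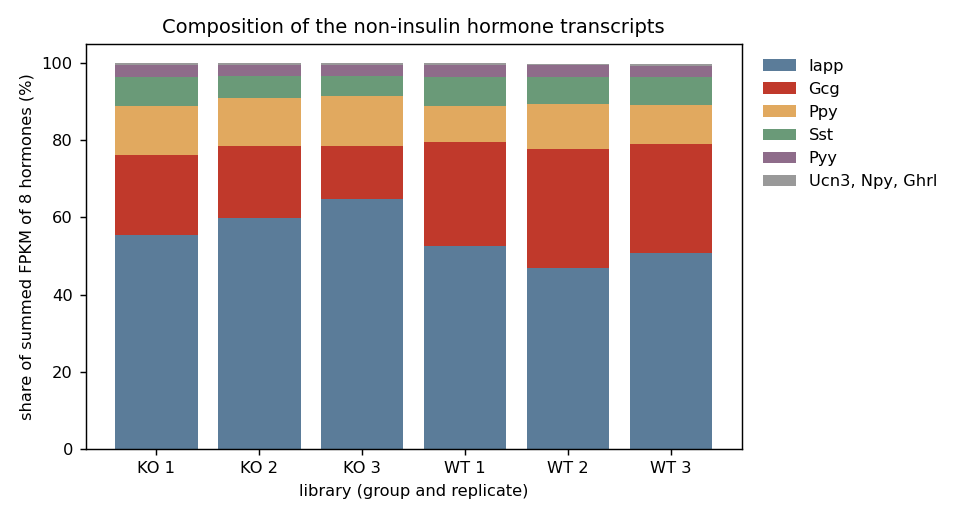
Share in percent of the summed FPKM of 8 hormones (insulin left out) in each KO and WT library, stacked by hormone. The Gcg share was 13.6% to 20.7% in KO and 26.8% to 30.8% in WT.

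Gcg, Sst, Iapp and Ucn3 were also set against other transcripts of the cell types that make them. Gcg stood 10.80, 10.13 and 9.71 log2 units above the mean of 6 alpha cell markers in the KO libraries and 11.14, 11.26 and 11.18 above it in the WT libraries, a difference of -0.98 without overlap. Of these markers the transporter gene Slc38a5 measured 4.12, 15.8 and 36.0 FPKM in KO replicates 1, 2 and 3 and 5.53 to 7.71 FPKM in WT, the KO values being in the same order as their acinar sums. Without it, a choice made after the data were seen, the difference was -0.75 and still without overlap. Sst stood 7.74, 7.50 and 7.51 log2 units above 3 delta cell markers in the KO libraries and 7.69, 7.58 and 7.64 above them in the WT libraries. These values overlapped, with a difference of -0.05. Relative to 15 beta cell markers, Iapp was 0.18 log2 units higher in KO and Ucn3 0.46 log2 units lower (difference -0.46), each without overlap. The exact permutation p was 0.1 for Gcg, Iapp and Ucn3 and 0.6 for Sst.

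Of 17 tested regulators of hormone genes 10 fell and 1 rose (64.7% called, beside 39.9% of all rows), with a median log2 difference of -0.46. In KO replicate 1 alone 8 fell and 0 rose. Rescaled to equal Iapp 7 fell and 2 rose, beside 5.77% of all rows called lower. Rescaled to equal summed hormones 5 fell and 4 rose, beside 1.7% of all rows called lower and 54% called higher. Mafa, which activates the insulin genes in beta cells, measured 101, 63.4 and 44.7 FPKM in the KO libraries and 197, 212 and 213 FPKM in the WT libraries (log2 difference -1.63, adjusted p = 0.0044). Pax6, an activator of glucagon and insulin transcription, measured 76.1, 64.6 and 64.5 FPKM in the KO libraries and 98, 96.4 and 107 FPKM in the WT libraries (log2 difference -0.55, adjusted p = 0.0037). Rfx6 and Isl1, endocrine cell factors, also fell, by log2 differences of -1.02 and -0.96. Pdx1, which binds the insulin and Iapp promoters, was at 58.6 ± 4.49 FPKM in KO and 65.0 ± 8.40 FPKM in WT (adjusted p = 0.31). It was named after its values were seen, as was Rfx3, the 1 regulator that rose (0.41, adjusted p = 0.0077).

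Among 17 tested genes of prohormone processing and granules, 4 fell and 2 rose, or 35.3% beside the 39.9% of all rows. The count moved with single libraries. Without KO replicate 1, 11 fell and 3 rose, and without KO replicate 2, 1 fell and 1 rose. Without KO replicate 3, 2 fell and 2 rose, and without any 1 of the WT libraries 0 fell. Calls over all rows moved as well, from 4657 to 5727, 3461 and 4120 without KO replicates 1, 2 and 3. They were 2481, 3249 and 2507 without WT replicates 1, 2 and 3. In KO replicate 1 alone 1 fell and 2 rose, and with equal summed hormones 0 fell and 4 rose, beside the 54% of all rows called higher. The convertases Pcsk1 and Pcsk2, which cut proinsulin and proglucagon, were at 140 ± 17.2 and 653 ± 87.3 FPKM in KO and 181 ± 4.32 and 898 ± 18.5 FPKM in WT (SD, n = 3 each), with limma adjusted p of 0.021 and 0.024. Both lost their calls without any 1 of the WT libraries (0.053 to 0.094), and Pcsk2 also without KO replicate 2 (0.068). With equal summed hormones their differences turned to 0.10 and 0.01. Furin, a convertase of the general secretory route, rose by 0.40 (adjusted p = 0.011). Vgf, a granin-like peptide precursor, rose by 0.69 (adjusted p = 0.02), but not without KO replicate 2, WT replicate 2 or WT replicate 3 (0.059, 0.063 and 0.076).

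Of 11 tested receptor genes for these hormones 3 fell and 2 rose, or 45.5%, near the 39.9% of all rows. Without WT replicate 1 or 3 this was 2 that fell and 1 that rose. Calls over all rows were 2481 and 2507 there, against 4657 with all libraries. The incretin receptor Glp1r, which binds a product of the Gcg gene, averaged 67.0 ± 4.15 FPKM in KO and 102 ± 4.68 FPKM in WT (log2 difference -0.61, adjusted p = 0.0014). The amylin and calcitonin receptor partners moved apart: Ramp2 fell by a log2 difference of -0.87 (adjusted p = 0.0016), while Ramp1 and Ramp3 rose by 0.86 and 1.14 (adjusted p of 0.012 and 0.013). Ramp1 lost its call without WT replicate 1 or 3 (0.052 and 0.05) and Ramp3 without WT replicate 3 (0.055). Calcr, the receptor they join to bind amylin, was listed at 0 in every library, so a part of theirs in amylin binding is not shown here.

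Beside the 19.6% of all rows called lower, 3 of 6 tested alpha markers fell, led by Slc7a2 (31.2 ± 3.08 FPKM in KO and 44.7 ± 1.29 FPKM in WT, adjusted p = 0.0038). The others, Irx1 and Irx2, were already counted among the regulators that fell. Irx1 (0.034) lost its call without any single library but KO replicate 1 (0.065 to 0.1). Irx2 (0.04) lost it without KO replicate 1 or 3 or WT replicate 2 or 3 (0.054 to 0.13). Of delta markers 2 of 3 fell, but 0 without WT replicate 1 and 1 without WT replicate 2 or 3. Hhex, also counted among the regulators that fell, had an adjusted p of 0.012 but 0.051 without WT replicate 1. Casr had 0.021 but 0.052 to 0.078 without any 1 of the WT libraries. Of beta markers 8 of 15 fell and 0 rose, among them Ffar1 (-1.15, adjusted p = 3.2e-04). The potassium channel subunit gene Abcc8 also fell (-0.46, adjusted p = 0.0054), with a difference of 0.01 with equal summed hormones. Mafa, Glp1r, Nkx6-1 and Pcsk1 fell too and were already counted on another list. Calls over all rows were 2481 to 3249 without any 1 of the WT libraries, against 4657 with all libraries, and there 5 beta markers fell. With equal summed hormones 2 fell and 4 rose, beside 1.7% of all rows called lower and 54% called higher.

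Of 40 other peptide precursors 11 were high enough to be tested, of which 2 fell and 3 rose, or 45.5%, near the 39.9% of all rows. Without KO replicate 2 or any 1 of the WT libraries 1 rose, while calls over all rows were 2481 to 3461, against 4657. Stc1 (stanniocalcin 1) measured 10.4, 10.7 and 7.09 FPKM in the KO libraries and 4.27, 3.34 and 2.84 FPKM in the WT libraries (log2 difference 1.21, adjusted p = 0.003). Edn3 (endothelin 3) and Pomc fell by log2 differences of -0.84 and -0.61 (adjusted p of 0.0068 and 0.01). Adm2 rose by 1.11 (adjusted p = 0.027), a call lost without KO replicate 2 or 3 or any 1 of the WT libraries (0.054 to 0.087). Gal (galanin), named after its values were seen, measured 5.11, 61.3 and 127 FPKM in KO replicates 1, 2 and 3 and 2.77 to 5.79 FPKM in WT (adjusted p = 0.062), high in the libraries with high acinar sums. Igf2, next to Ins2 on chromosome 7, was at 1.72 ± 0.219 FPKM in KO and 1.85 ± 0.097 FPKM in WT.

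The rows most like each abundant hormone over the 6 libraries were found from centred log2 values. Of the 11668 other tested rows, those joining several symbols, predicted genes and small RNAs were left out of this search. Closest to Gcg was the ETS factor gene Etv1 (root mean square difference 0.0915 log2 units), followed by the cytokine gene Il1b (0.12) and the adenosine receptor gene Adora2b (0.133). Etv1 measured 8.07, 5.02 and 4.14 FPKM in the KO libraries and 13.2, 13.8 and 13.1 FPKM in the WT libraries. Sst was nearest to BC037704, Upk3a and Mtss1l (0.0929 to 0.107). BC037704 itself (adjusted p = 0.025) lost its call without KO replicate 2 or any 1 of the WT libraries (0.059 to 0.09). Iapp was nearest to Nenf, Fam174b and Wbp5 (0.0127 to 0.0185), and for Nenf the values were 72.3, 59.2 and 65.9 FPKM in KO and 77.8, 74.3 and 75.9 FPKM in WT.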

How the data were processed

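The submitters' processing notes name TopHat2 2.0.8b, Cuffdiff 2.1.1 and build mm10. The values deposited by the authors, 1 per gene row and library, were taken as FPKM, which Cuffdiff writes; annotation, strand setting and scaling: not given in the sources used here, and depth is unknown. FPKM splits fragments between overlapping and near-identical genes by estimate. Members and gene lists were chosen with earlier results of these data known, so none is independent support. Listed zeros of a gene at 10 FPKM or more in another library (22 rows) were treated as failed estimates. These rows, Ins1 among them, stayed in the fit across all rows and in its adjustment, but no insulin result was used. Without the 22 rows 4691 rows were called, against 4657.

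Rows with a mean of at least 1 FPKM (11669) were tested on log2(FPKM + 1) with limma 3.58.1 in R 4.3.3 (variance prior with a trend, two-sided, group only; residual degrees of freedom 4) and Benjamini-Hochberg adjustment over these rows and a threshold of 0.05. Fold changes on this scale understate changes of low genes. Ratios between members used FPKM without a pseudocount and exact permutation tests. Named genes were the 10 members, up to 4 genes per list of the smallest p past the threshold, and the 3 nearest rows to Gcg, Sst and Iapp. Rows joining several symbols, predicted genes and small RNAs were not eligible to be named. List symbols were matched through RefSeq synonyms, except names that are another gene's symbol; Insl3 had no match. The fit was tested on simulated data. Alternatives were other pseudocounts, filters, scalings and variance priors, a replicate block, the acinar level as a covariate, KO replicate 1 alone and each library left out. A variance prior without a trend, removal of the 22 rows and the alpha list without Slc38a5 were added after the data were seen. Python 3.11.15 and matplotlib 3.10.9 were used for the rest. Some results for single genes of the Schwann cell and nerve list are not reported here.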

Additional observations from a re-analysis of the deposited data

How the results depend on the processing

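Of the 8 hormones, 2 were called with values as deposited. Counts of called hormones were 1 with equal summed hormones, which moved the median of all rows to 0.41 and left Ucn3 alone (Npy at -0.36, adjusted p = 0.13), and 5 with a robust variance prior, with array weights and with a prior without a trend (adjusted p of Gcg 0.0063, 0.025 and 0.0095). Leaving out single libraries gave 2 to 5 called hormones, 5 without KO replicate 1, and 19 to 47 called genes over the 7 pathway lists (33 with all libraries). The calls over all rows, 4657 with all libraries, were 2481 to 5727 when single libraries were left out, 2808 with the acinar covariate and 3041 in KO replicate 1 alone. The sign of Ppy turned with equal summed hormones (0.29), equal Iapp (0.03), the acinar covariate (0.01) and KO replicate 1 alone (0.06), and that of Iapp with equal summed hormones (0.26). Pairs of hormones without overlap numbered 13 as deposited, 0 after quantile normalization, 20 for KO replicate 1 alone and 14 to 18 without single libraries, and hormones without overlap against their markers numbered 3 as deposited, 1 after quantile normalization and 3 to 4 without single libraries. Leaving out libraries can only keep or raise a count without overlap, because fewer values are compared. The counts from fewer libraries, KO replicate 1 alone among them, therefore cannot be set against those from all libraries. They do not show a clearer separation of the groups. The cause of the other moves was not tested. The replicate block gave 3865 calls over all rows, 2 called hormones and 29 called list genes; deviations of same-numbered libraries correlated at -0.206, -0.0885 and 0.0276, so the numbers were not taken to pair the libraries. As depth is unknown, the counting error of Npy and Ghrl, the hormones of lowest FPKM, is unknown too.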
